A study of Mus musculus with 6 samples.

Results

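Genes of ribosome biogenesis and of RNA polymerases I and III were followed in cultured mouse granulosa cells, the hormone-producing cells of the ovarian follicle that nourish the oocyte, with and without cyclophosphamide. The members were the protein-coding rows whose symbol is Polr1 or Polr3 plus a letter, or Utp or Nop plus digits, together with 25 genes named singly, among them Fbl, Ncl, Npm1, Dkc1, Ubtf, Rrn3, Bop1, Nob1 and Brf1. The rule reads symbols alone and gave 58 of the 54532 genes in the table and left out 1 processed pseudogene. All 58 passed the filter on low values. The control group (n = 3) was wild-type cells with no treatment, and the other group (n = 3) was the same kind of wild-type cell 24 h after cyclophosphamide was added. The protocol adds the drug once cells have adhered for 2 days. The labels tag the cells as a cell line without naming one. The treatment label of the second group names an injection into the peritoneum, while the protocol and the design text describe drug given to cells in culture, and the exposure is stated here as the latter have it. Cyclophosphamide is a DNA-alkylating chemotherapy agent that is activated mainly by liver enzymes, and the labels state neither its dose nor the strain or age of the mice. Nothing states that the replicates were separate cultures or animals, so p-values measure only the spread between these libraries, which may be technical.

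A cell begins its ribosomes in the nucleolus, where RNA polymerase I transcribes the long precursor of most ribosomal RNA (rRNA). RNA polymerase III, which works mostly outside the nucleolus, supplies the small rRNA of the large subunit along with transfer RNAs. The long precursor is modified by small nucleolar ribonucleoproteins (snoRNPs), folded and cut by the small-subunit processome and by large-subunit assembly factors, and joined to ribosomal proteins made in the cytoplasm. In the growing follicle this pathway supports the multiplication and protein secretion of granulosa cells. The libraries were made from polyadenylated RNA, so they report the messenger RNAs of these factors and not the rate at which rRNA is made.

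The libraries held 16458385 to 17607586 reads, and reads per member per library ran from 53 to 15646. The first principal component separated the treatments and held 86.8% of the variance. Along the second (4.68%) the treated libraries spread out, with replicate 1 at -27.98 and replicates 2 and 3 at 20.3 and 6.72. Of 9 granulosa markers, 7 had reads enough to be tested and 6 fell, among them Inha, a hormone subunit, with 1984 ± 95.8 FPKM untreated and 905 ± 158 with the drug (mean ± SD, n = 3). FPKM are reads scaled by gene length and by the size of the library. Cyp19a1, the aromatase that defines estrogen-making granulosa cells, and Amh were under the filter in both groups.

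Most members were more abundant in the cyclophosphamide libraries. Members took 0.444% to 0.455% of all reads in the untreated libraries and 0.672% to 0.683% in the cyclophosphamide libraries, and the groups did not overlap. In limma, with Benjamini-Hochberg adjustment over 14885 genes and a threshold of 0.05, 43 members were higher, 5 were lower and 10 did not pass. Of all genes tested, 68.9% passed in either direction, 33.1% were higher and 35.8% were lower, so a call alone was common in this comparison while the direction of the members was not that of genes at large. In 44 members all 3 cyclophosphamide libraries lay above all 3 untreated libraries, against 35.3% of all genes, and in 5 all lay below, against 37.8%. The median log2 fold change of the members, on the scale of log2(FPKM + 0.1), was 0.54 (quartiles 0.24 and 0.76), beside -0.02 (quartiles -0.66 and 0.50) over all genes tested. Changes were moderate, and on this scale only 5 members rose and 3 fell by 2-fold or more. Utp4 fell just short (0.998), although its mean FPKM was 2.01 times the untreated mean. Levels are relative to all other messenger RNA in a library, and in bulk RNA fewer cells of a type and less RNA per cell cannot be told apart.

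**Figure D1:**
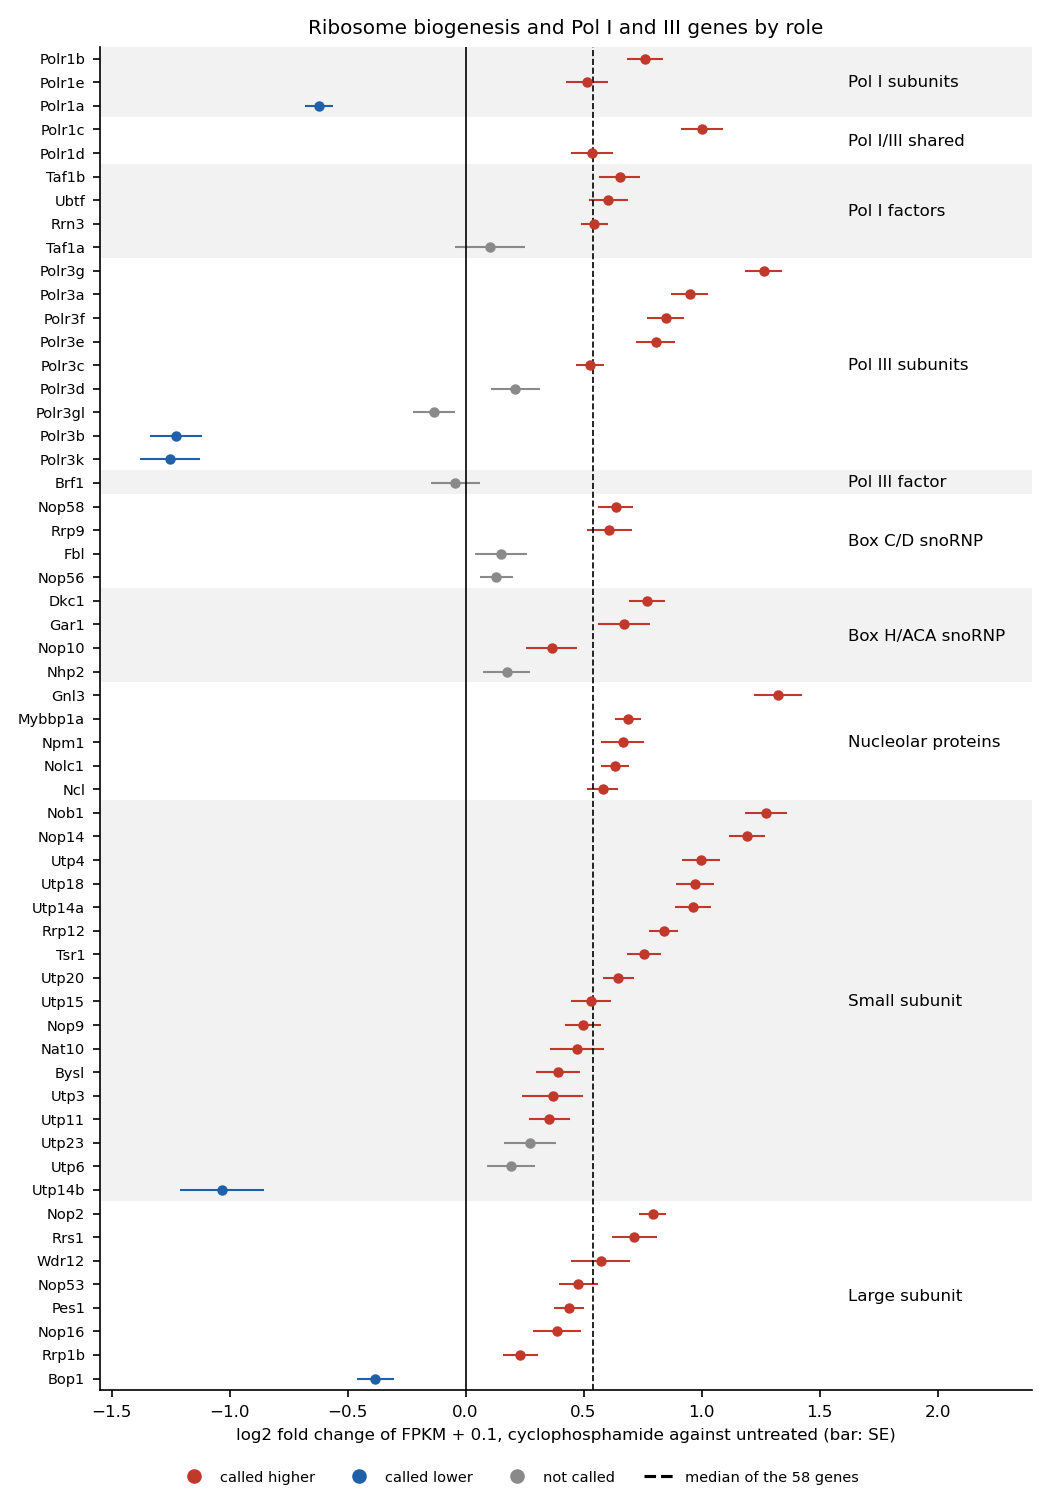
Log2 fold change of FPKM + 0.1 (cyclophosphamide against untreated, horizontal axis) of 57 of the 58 genes, grouped by role, with the standard error as a bar and the median of all 58 (0.54) as a dashed line. Red points passed the test as higher (43 genes), blue as lower (5) and grey did not pass (9 shown), and every role with at least 3 genes has its median to the right of 0.

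**Figure D2:**
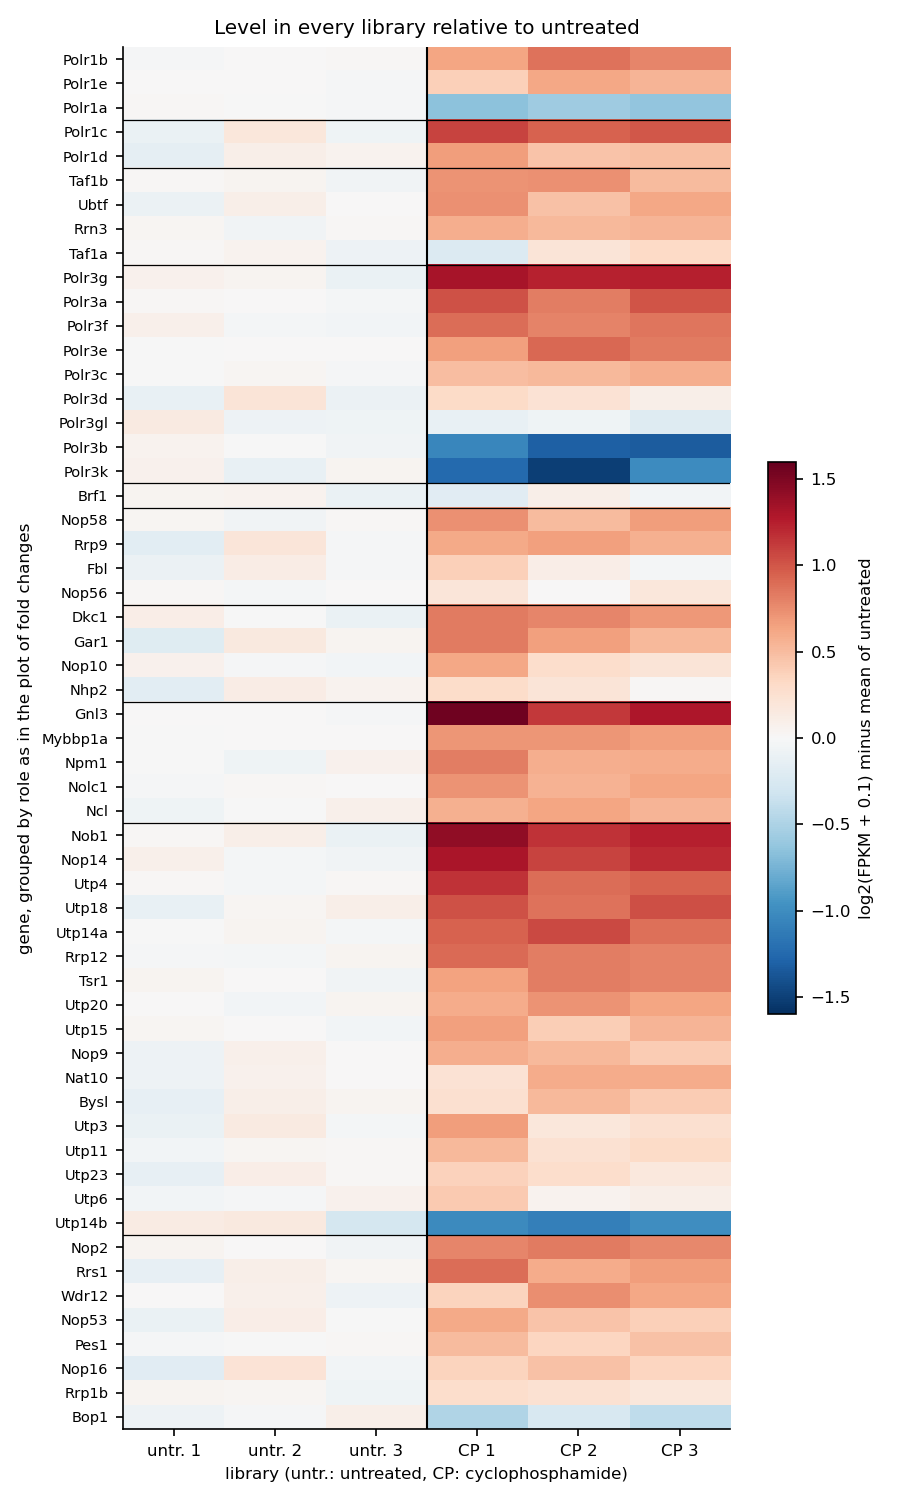
Level of the same 57 genes in each of the 6 libraries as log2(FPKM + 0.1) minus the untreated mean, in the same order of genes, with red above and blue below the untreated mean. The 3 cyclophosphamide columns are alike in sign for most genes, and their median deviations over the 58 genes are 0.60, 0.52 and 0.54.

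Of the 3 members that are subunits of polymerase I alone, 2 rose and 1 fell. Polr1a, the largest subunit and the one that carries the active site (chromosome 6, 71909053 to 71984935), measured 20.6, 20.2 and 19.9995 FPKM in the untreated and 12.8, 13.6 and 12.99 FPKM in the cyclophosphamide libraries. It fell without overlap, and its log2 fold change (± SE) was -0.62 ± 0.059 at a limma adjusted p of 4.24e-05. Its partner in the catalytic core, Polr1b (chromosome 2, 129100995 to 129126594), measured 8.87, 9.08 and 9.13 FPKM untreated and 14.1, 16.5 and 15.6 FPKM with the drug. Polr1b rose, with a change of 0.76 ± 0.077 (limma adjusted p = 6.05e-05), and every treated library lay above every untreated library. The ratio of Polr1a to Polr1b FPKM within a library was 2.32, 2.22 and 2.19 untreated and 0.912, 0.824 and 0.833 with the drug. Which of the 2 has the higher FPKM depends on the gene lengths used (11871 and 5805 bases). In reads Polr1a stayed above Polr1b in every library (2508 beside 1344 in cyclophosphamide replicate 1). The values show a change of the ratio and do not settle which messenger RNA was the more abundant. This pair was chosen with its values known and has no test. Polr1e, a subunit that helps the enzyme start and elongate, rose by 0.51 ± 0.089.

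Polymerase I is brought to the rRNA genes by dedicated factors, and 3 of the 4 among the members rose. Rrn3, which bridges the polymerase and the promoter-bound factors (chromosome 16, 13780708 to 13814839), measured 28.01, 26.2 and 27.7 FPKM untreated and 40.8, 39.3 and 39.7 FPKM with cyclophosphamide. The Rrn3 values did not overlap and differed by 0.55 ± 0.057 in log2 (limma adjusted p = 7.19e-05). Ubtf, the factor that coats active rRNA genes (chromosome 11, 102304560 to 102319742), measured 22.3, 25.5 and 23.9 FPKM untreated and 39.5, 33.1 and 36.6 FPKM treated, a rise of 0.60 ± 0.084 (limma adjusted p = 3.39e-04). The selectivity factor that sits beside Ubtf contributed Taf1b, which rose by 0.65 ± 0.088, and Taf1a, which did not pass (0.11 ± 0.15, limma adjusted p = 0.545). The treated libraries of Taf1a disagreed, at 3.28, 4.42 and 4.81 FPKM around untreated values of 3.89, 3.97 and 3.61 FPKM. Without cyclophosphamide replicate 1 the Taf1a difference was 0.27 and passed (limma adjusted p = 0.048), and without replicate 3 it was -0.0040.

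The Rrn3 promoter is shown because it holds 2 copies of CACGTG, a sequence read the same on both strands that is the core E-box bound by Myc with Max and by several related factors. The stretch is chr16:13780449-13780748 on the plus strand of GRCm38.p6, from RefSeq, running from 250 bases before to 50 bases after the annotated start, and capitals mark the motif.
Rrn3: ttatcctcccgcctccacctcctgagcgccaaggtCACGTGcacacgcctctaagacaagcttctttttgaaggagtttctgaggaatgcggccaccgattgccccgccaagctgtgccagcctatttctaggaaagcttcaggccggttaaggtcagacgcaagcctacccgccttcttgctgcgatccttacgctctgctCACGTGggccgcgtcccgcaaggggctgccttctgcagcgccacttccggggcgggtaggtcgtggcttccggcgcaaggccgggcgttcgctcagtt

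Both subunits shared between polymerases I and III rose. Polr1c, which with Polr1d nucleates assembly of either enzyme (chromosome 17, 46243920 to 46248054), measured 14.9, 18.2 and 15.3 FPKM untreated and 34.05, 30.9 and 32.04 FPKM with cyclophosphamide. Its treated level was about 2 times the untreated level, which is 1.003 ± 0.088 in log2 (limma adjusted p = 2.96e-05). Polr1d rose by 0.53 ± 0.089, but its reads are uncertain, because a processed pseudogene identical to it over 281 bases held 2492 reads beside the 7524 of Polr1d itself.

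The 10 members that are subunits of polymerase III alone, the alternative paralogues Polr3g and Polr3gl included, spanned nearly the whole range of the members, with 5 higher, 2 lower and 3 that did not pass, and a median log2 fold change of 0.37. Polr3a, the largest subunit, carries most of the active site (chromosome 14, 24448696 to 24487058). It measured 6.97, 6.92 and 6.73 FPKM untreated and 14.1, 12.2 and 13.9 FPKM treated, a rise of 0.95 ± 0.080 (limma adjusted p = 2.30e-05). Polr3b, the partner of Polr3a in the catalytic core (chromosome 10, 84622292 to 84727178), went the opposite way, from 6.38, 6.11 and 5.86 FPKM to 2.91, 2.41 and 2.38 FPKM. It fell with no overlap between the groups, and the fold change in log2 was -1.23 ± 0.11 (limma adjusted p = 3.40e-05). The FPKM ratio of Polr3a to Polr3b was 1.09, 1.13 and 1.15 in the untreated and 4.84, 5.05 and 5.87 in the treated libraries, a pair chosen with its values known and not tested.

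Polr3k, the small subunit that cleaves RNA in a paused enzyme and takes part in termination (chromosome 2, 181864337 to 181870830), fell by about as much as Polr3b. It measured 16.9, 14.7 and 16.6 FPKM untreated and 6.71, 5.61 and 7.93 FPKM treated, a fall without overlap (log2 fold change -1.25 ± 0.13, limma adjusted p = 6.07e-05). The other subunits that act in initiation and termination mostly rose, Polr3e by 0.80 ± 0.082, Polr3f by 0.85 ± 0.080 and Polr3c by 0.53 ± 0.060. Polr3d did not pass at 0.21 ± 0.10 (limma adjusted p = 0.104), and it passed without untreated replicate 2, at 0.32 (limma adjusted p = 0.0172).

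Polymerase III exists in 2 forms that differ in the subunit Polr3g or its paralogue Polr3gl. In textbook accounts the Polr3g form belongs to stem cells and tumors and the Polr3gl form to most differentiated cells. Polr3g (chromosome 13, 81673843 to 81711013) measured 6.37, 6.30 and 5.64 FPKM untreated and 15.4, 14.4 and 14.6 FPKM treated, a rise of 1.26 ± 0.077 (limma adjusted p = 5.20e-06). It had the smallest p-value among the members. Polr3gl (chromosome 3, 96577872 to 96594181) measured 9.39, 8.04 and 8.08 FPKM untreated and 7.80, 8.07 and 7.32 FPKM treated, and its difference did not pass (-0.13 ± 0.089, limma adjusted p = 0.214). The groups of Polr3gl overlapped by 1 treated library, and without untreated replicate 1 the difference was -0.060. Within a library the ratio of Polr3g to Polr3gl was 0.679, 0.784 and 0.698 untreated and 1.97, 1.78 and 1.99 treated. The paralogue with the higher FPKM was Polr3gl in every untreated library and Polr3g in every treated library. That order depends on the gene lengths used, 3936 bases for Polr3g and 1597 for Polr3gl. In reads Polr3g was above Polr3gl in every library (410 beside 245 in untreated replicate 1). The values show a change of the ratio and do not settle which paralogue was the more abundant. An exact permutation test of the log2 ratio, two-sided, gave p = 0.1, the smallest that 3 libraries against 3 allow, and 0.1 after Benjamini-Hochberg adjustment over 3 paralogue pairs. Brf1, the factor that links the polymerase to its promoters, measured 5.30, 5.33 and 4.76 FPKM untreated and 4.51, 5.48 and 4.96 FPKM treated, and these values overlapped (-0.043 ± 0.10, limma adjusted p = 0.727).

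The promoters of the paralogues are set beside each other because the messenger RNAs behaved differently. Both lie on the minus strand and are printed 5′ to 3′ along it, Polr3g at chr13:81710964-81711263 and Polr3gl at chr3:96594132-96594431 (GRCm38.p6, RefSeq), with CACGTG in capitals. Polr3gl holds it at -194 from the start, and these letters are not in the Polr3g window.
Polr3g: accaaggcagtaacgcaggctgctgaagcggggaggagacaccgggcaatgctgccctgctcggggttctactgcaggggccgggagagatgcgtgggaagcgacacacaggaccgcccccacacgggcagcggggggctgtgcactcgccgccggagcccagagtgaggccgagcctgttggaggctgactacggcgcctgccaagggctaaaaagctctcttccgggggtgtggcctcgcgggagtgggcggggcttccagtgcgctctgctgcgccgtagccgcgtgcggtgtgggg
Polr3gl: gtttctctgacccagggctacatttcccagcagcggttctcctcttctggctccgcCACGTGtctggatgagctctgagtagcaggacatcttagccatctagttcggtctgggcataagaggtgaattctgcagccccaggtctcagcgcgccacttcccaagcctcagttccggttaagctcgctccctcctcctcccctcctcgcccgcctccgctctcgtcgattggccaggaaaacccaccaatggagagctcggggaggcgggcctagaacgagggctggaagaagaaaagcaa

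**Figure D3:**
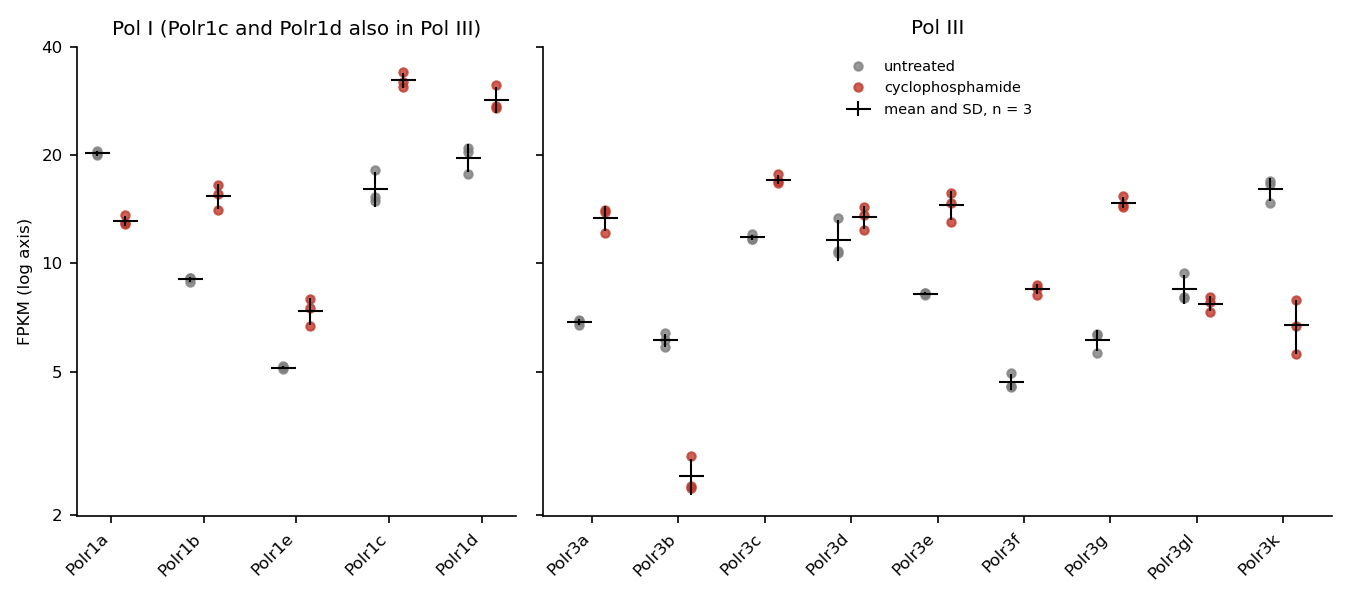
FPKM of 14 polymerase I and III subunits on a log axis in each library, untreated in grey and cyclophosphamide in red, with the mean and SD (n = 3) in black. Polr1a, Polr3b and Polr3k lie lower with the drug without overlap, while Polr1b, Polr1c, Polr3a and Polr3g lie higher.

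The proteins of the snoRNPs did not all change. Of the 4 proteins of box C/D particles, most of which methylate rRNA at sites chosen by guide RNAs, 2 rose. Fbl, the methyltransferase itself (chromosome 7, 28169710 to 28179269), measured 19.7, 22.9 and 20.8 FPKM untreated and 27.4, 22.8 and 20.6 FPKM treated, and the difference did not pass (0.15 ± 0.11, limma adjusted p = 0.249). It was 0.039 without cyclophosphamide replicate 1 and 0.24 without replicate 3, and passed in neither case. Nop56 (chromosome 2, 130274430 to 130279313) measured 31.3, 30.2 and 31.2 FPKM untreated and 35.5, 31.1 and 35.1 FPKM treated and did not pass either (0.13 ± 0.068, limma adjusted p = 0.121). It passed without cyclophosphamide replicate 2, at 0.19 (limma adjusted p = 0.027). Nop58, the paralogue that pairs with Nop56 in the particle (chromosome 1, 59684971 to 59719044), rose from 12.6, 11.8 and 12.4 FPKM to 20.4, 17.5 and 19.6 FPKM (0.64 ± 0.075, limma adjusted p = 1.41e-04). The ratio of Nop58 to Nop56 was 0.402, 0.392 and 0.398 untreated and 0.574, 0.563 and 0.559 treated. The exact permutation test gave p = 0.1, which does not pass and could not have been smaller. Rrp9, which joins the snoRNP of the processome and not those that guide methylation, rose by 0.61 ± 0.095.

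Box H/ACA proteins convert uridine in rRNA to pseudouridine, and 3 of 4 rose. Dkc1, the pseudouridine synthase that is also a telomerase component (chromosome X, 75095854 to 75109777), measured 14.7, 13.5 and 12.6 FPKM untreated and 24.2, 23.4 and 22.1 FPKM treated (0.77 ± 0.075, limma adjusted p = 5.22e-05). Its treated libraries all lay above its untreated ones. Gar1 rose by 0.67 ± 0.11 and Nop10 by 0.37 ± 0.11. In Nop10 all treated libraries lay above all untreated ones. Without untreated replicate 3 its difference was 0.34 and missed the threshold (limma adjusted p = 0.0535), and without cyclophosphamide replicate 1 it was 0.24 and passed (0.0109). Nhp2, the most abundant of the group by FPKM, did not pass (0.17 ± 0.10, limma adjusted p = 0.154), and its difference was 0.092 without untreated replicate 1 and 0.11 without cyclophosphamide replicate 1.

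All 5 nucleolar proteins with broader roles rose, with a median of 0.67. Gnl3 (nucleostemin), a GTP-binding protein of the nucleolus known for its level in stem and dividing cells (chromosome 14, 31012433 to 31019152), had the largest rise of the members. It measured 13.6, 13.6 and 13.2 FPKM untreated and 39.7, 29.5 and 33.1 FPKM treated, 2.53 times the untreated mean (1.32 ± 0.10, limma adjusted p = 1.65e-05). The treated libraries of Gnl3 were all more than 2-fold above the untreated ones, with replicate 1 the highest. Npm1 (nucleophosmin), a histone and ribosome chaperone (chromosome 11, 33152287 to 33163206), had the highest FPKM of the members. It measured 153, 147 and 161 FPKM untreated and 270.3, 229.9 and 231 FPKM treated. It rose by 0.67 ± 0.092 in log2 (limma adjusted p = 3.44e-04), and its 4 near-identical processed pseudogenes together held 5.6% as many reads. Ncl (nucleolin), which binds the nascent precursor (chromosome 1, 86344719 to 86359400), measured 52.5, 54.8 and 58.8 FPKM untreated and 82.03, 85.7 and 80.8 FPKM treated (0.58 ± 0.066, limma adjusted p = 1.17e-04). Mybbp1a, a nucleolar partner of transcription factors, rose by 0.69 ± 0.055 and Nolc1, a chaperone of snoRNPs, by 0.63 ± 0.061. Their untreated libraries differed little, at 53.003, 53.8 and 53.4 FPKM for Mybbp1a.

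The small subunit is built on the processome and finished in the cytoplasm, and 14 of its 17 factors rose, 1 fell and 2 did not pass (median 0.53). Nob1, the nuclease that makes the last cut of the small-subunit rRNA (chromosome 8, 107412486 to 107425051), measured 10.4, 10.96 and 9.55 FPKM untreated and 27.7, 22.98 and 24.4 FPKM treated, a rise of 1.27 ± 0.089 (limma adjusted p = 9.48e-06). Nop14, a processome component (chromosome 5, 34638536 to 34660148), measured 26.1, 24.1 and 23.8 FPKM untreated and 60.98, 52.4 and 56.4 FPKM treated (1.19 ± 0.075, limma adjusted p = 5.95e-06). Both genes stood more than 2-fold above the untreated level in every treated library. Utp20, a large processome scaffold (chromosome 10, 88746607 to 88826804), measured 11.4, 10.9 and 11.6 FPKM untreated and 17.1, 18.7 and 17.6 FPKM treated (0.65 ± 0.065, limma adjusted p = 6.06e-05). The treated values of Utp20 were close together and clear of the untreated ones.

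Rises among the remaining small-subunit factors ranged from 0.36 to 0.998. Early processome proteins rose, Utp4 by 0.998 ± 0.080, Utp18 by 0.97 ± 0.080, Utp15 by 0.53 ± 0.083 and Utp11 by 0.36 ± 0.086. Factors that accompany the particle toward export rose as well, Rrp12 by 0.84 ± 0.063, Tsr1 by 0.76 ± 0.071 and Bysl by 0.39 ± 0.093. Nat10, an RNA acetyltransferase, rose by 0.47 ± 0.11 and Nop9, an RNA-binding processome protein, by 0.50 ± 0.075. Exons of Tsr1 overlap those of Srr on the opposite strand over 1240 bases, and exons of Bysl those of Ccnd3 over 361 bases. Whether the counting used strand is not known from the labels, so reads from these stretches cannot be told apart. Utp3 passed by a small margin (0.37 ± 0.13, limma adjusted p = 0.0343). Its treated libraries measured 45.9, 32.8 and 34.6 FPKM beside 26.7, 31.9 and 28.2 FPKM untreated, and the call was lost without untreated replicate 1 (limma adjusted p = 0.104), without untreated replicate 3 (0.0864) and without cyclophosphamide replicate 1 (0.0509, with a difference of 0.22). Utp23 (0.27 ± 0.11, limma adjusted p = 0.0549) and Utp6 (0.19 ± 0.10, limma adjusted p = 0.12) did not pass, and the Utp6 difference was 0.080 without cyclophosphamide replicate 1. Utp23 nevertheless had all treated libraries above all untreated ones, and it passed without untreated replicate 2 (limma adjusted p = 0.0498).

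Utp14a and Utp14b encode paralogues of a processome factor, the former on chromosome X and the latter a retroposed copy known for its role in the male germ line. Utp14a measured 6.49, 6.73 and 6.37 FPKM untreated and 12.7, 13.7 and 12.1 FPKM treated and rose by 0.96 ± 0.076 (limma adjusted p = 1.67e-05). Utp14b, the least abundant member, measured 1.05, 1.07 and 0.763 FPKM untreated and 0.419, 0.392 and 0.43 FPKM treated and fell (log2 fold change -1.03 ± 0.18, limma adjusted p = 0.00113). It rests on 53 to 143 reads per library, and 244 of its exonic bases are shared with Acsl3 on the same strand. The ratio of Utp14a to Utp14b was 6.17, 6.31 and 8.36 untreated and 30.2, 35.02 and 28.1 treated. Here too the exact permutation test gave p = 0.1, which does not pass and could not have been smaller.

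Of the 8 large-subunit factors 7 rose and 1 fell (median 0.46). Nop2, a methyltransferase of the large-subunit rRNA known as a proliferation antigen (chromosome 6, 125131909 to 125144753), measured 33.4, 32.6 and 30.97 FPKM untreated and 55.8, 57.4 and 54.98 FPKM treated (0.79 ± 0.058, limma adjusted p = 1.20e-05). The libraries of each group lay close together and far from the other group. Bop1, which forms a complex with Pes1 and Wdr12 that the large subunit needs (chromosome 15, 76452989 to 76477277), measured 24.6, 25.7 and 27.8 FPKM untreated and 18.6, 21.7 and 19.6 FPKM treated. It fell without overlap (-0.38 ± 0.079, limma adjusted p = 0.00288), whereas its partners Pes1 (0.44 ± 0.063) and Wdr12 (0.57 ± 0.13) rose. The ratio of Bop1 to Pes1 was 0.734, 0.761 and 0.808 untreated and 0.386, 0.504 and 0.419 treated, without a test because the pair was chosen with its values known. A processed pseudogene of Wdr12, near-identical over 1272 bases, held 90 reads beside 4634, and stretches of 206 and 208 bases are shared with Tmod3 and Ppip5k1, so its reads are less certain. Rrs1, which brings in the small rRNA, rose by 0.72 ± 0.096, Nop53 by 0.48 ± 0.083 and Nop16 by 0.39 ± 0.10. Rrp1b had the smallest rise called among the members (0.23 ± 0.073, limma adjusted p = 0.0213), and the call was lost without untreated replicate 3 (limma adjusted p = 0.091).

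Nop2 and Utp20 are given with their promoters as genes that rose and hold CACGTG on either side of the start, at -60 in Nop2 and at 38 in Utp20. Nop2 lies at chr6:125131633-125131932 on the plus strand and Utp20 at chr10:88826765-88827064 on the minus strand (GRCm38.p6, RefSeq), and capitals mark the motif.
Nop2: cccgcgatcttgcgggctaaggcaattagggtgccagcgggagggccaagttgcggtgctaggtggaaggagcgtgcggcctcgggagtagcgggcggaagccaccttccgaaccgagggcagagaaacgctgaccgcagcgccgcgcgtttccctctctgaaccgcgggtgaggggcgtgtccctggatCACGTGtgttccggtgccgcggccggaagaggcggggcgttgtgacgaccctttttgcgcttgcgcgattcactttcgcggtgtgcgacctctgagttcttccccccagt
Utp20: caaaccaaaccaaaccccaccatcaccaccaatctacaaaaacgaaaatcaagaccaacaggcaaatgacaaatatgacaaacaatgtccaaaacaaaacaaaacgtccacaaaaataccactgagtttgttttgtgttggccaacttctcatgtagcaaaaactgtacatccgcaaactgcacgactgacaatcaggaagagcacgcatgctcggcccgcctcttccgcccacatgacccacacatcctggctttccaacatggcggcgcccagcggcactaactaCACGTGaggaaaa

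RefSeq promoters of 300 bases were matched for 45 of the 58 members by symbol, and CACGTG was searched in them on both strands at once, since it reads the same on either. It was present in 12 of the 45 (26.7%), beside 11.7% of 10522 tested genes and 8.09% of all 27025 genes with a promoter. The 12 were Mybbp1a, Nop2, Pes1, Polr3c, Polr3e, Polr3gl, Rrn3, Tsr1, Utp14b, Utp18, Utp20 and Utp4. Among members that rose 10 of 37 held it, among those that fell 1 of 4 (Utp14b), and among those that did not pass 1 of 4 (Polr3gl). Of all tested genes, 12.9% of those higher and 10.8% of those lower held it. Member windows were also richer in G and C, with a median of 59.3% against 52.7% over all windows. The 45 members had 54 windows. In 45 of these windows the first 30 bases from the annotated start were found in a GENCODE transcript of the gene. In the other windows they were not, so those starts are less certain. A match describes these letters and does not show that a factor was bound.

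Genomic span and level were set beside the change of each member. Few members were long, so a correlation over them says little about long genes. Across the 58 genes the Spearman correlation of the log2 fold change with the genomic span was 0.033 and with the untreated level 0.045, values given as a description of genes that share the same libraries. Members were mostly short, with a median span of 15.7 kb beside 20.2 kb over all tested genes, and 54 of 58 spanned at most 50 kb. Of the 14885 tested genes, 1925 spanned 50 to 100 kb and 1832 more than 100 kb. Over all tested genes those spanning more than 100 kb had a median log2 fold change of -0.66, with 298 higher and 1135 lower of 1832. The only member of that size was Polr3b, at 104.9 kb, which fell. Of the 3 members spanning 50 to 100 kb, Polr1a (75.9 kb) fell, and Utp20 (80.2 kb) and Taf1b (60.2 kb) rose. Among shorter members 1 of 17 up to 10 kb fell (Polr3k, 6.49 kb), 1 of 17 from 10 to 20 kb and 1 of 20 from 20 to 50 kb. The part of gene length in these values was not tested.

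Cyclophosphamide replicate 1, which stood apart on the second principal component, had the highest treated value in 34 of the 58 members, beside 18 for replicate 2 and 6 for replicate 3. The same count over all genes was not made. Its median deviation of the members from the untreated mean was 0.60, beside 0.52 and 0.54, and over all tested genes -0.035, beside -0.0088 and -0.019. The authors' library size was 0.987 times the summed reads in replicate 1, beside 1.04 and 1.03, and a smaller size gives higher FPKM. As a share of reads the members took 0.683%, beside 0.676% and 0.672%. Without replicate 1 of the treated group 43 members were higher and 5 lower, as many as with it.

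Other genes of the pathway, 162 in 8 lists, were counted in the same way. Of 160 tested, 116 were higher and 15 lower, with a median log2 fold change of 0.46. The shares over all genes tested were 33.1% higher and 35.8% lower. Processome and other small-subunit genes outside the members had 38 higher and 2 lower of 46 (median 0.51). Pwp2 (1.38 ± 0.063) and Wdr75 (1.24 ± 0.069), both processome proteins, rose with the smallest p-values of that list, while Nol7 (-0.58 ± 0.097) and Ddx49 (-0.22 ± 0.072) fell. Large-subunit genes outside the members had 41 higher and none lower of 50 (median 0.48), led by Nol9 (1.47 ± 0.066) and Sdad1 (1.50 ± 0.073), and Wdr74 was under the filter. The exosome and other factors that trim rRNA ends had 10 higher and 1 lower of 14. The latter was the nuclease Xrn2 (-0.25 ± 0.059), which is not an exosome subunit.

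The remaining lists each held genes that rose and genes that fell. Of all genes tested 33.1% were higher and 35.8% lower, so both directions within a list are not particular to these genes. Of 7 other polymerase I genes 5 rose (median of the list 0.63), including Taf1d (1.22 ± 0.14) and the subunit Twistnb (0.83 ± 0.088), and the subunit Cd3eap fell (-0.73 ± 0.11). Of 17 other polymerase III genes 11 rose (median of the list 0.44), including Snapc4 (1.02 ± 0.081), the TFIIIB subunit Bdp1 (0.83 ± 0.080) and Maf1, the repressor of polymerase III (0.51 ± 0.083), and Snapc3 (-0.48 ± 0.089) and Snapc5 (-0.61 ± 0.13) fell. Of the 5 subunits common to polymerases I, II and III, Polr2h rose (0.64 ± 0.069), Polr2l fell (-1.25 ± 0.19) and 3 did not pass. The snoRNP assembly machinery had 5 higher and 3 lower of 10. Naf1 (1.20 ± 0.063) and Ruvbl2 (1.03 ± 0.067) rose, and Shq1, Pih1d1 and Rpap3 fell by 0.43 ± 0.12, 0.46 ± 0.069 and 0.31 ± 0.083 on the log2 scale. RNase P and RNase MRP, which cut transfer RNA and rRNA precursors, had 5 higher and 5 lower of 11. Their large scaffold Pop1 measured 6.56, 6.13 and 6.02 FPKM untreated and 1.22, 0.911 and 1.33 FPKM treated (-2.35 ± 0.15, limma adjusted p = 6.15e-06), the lowest fold change of any gene in these lists.

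**Figure D4:**
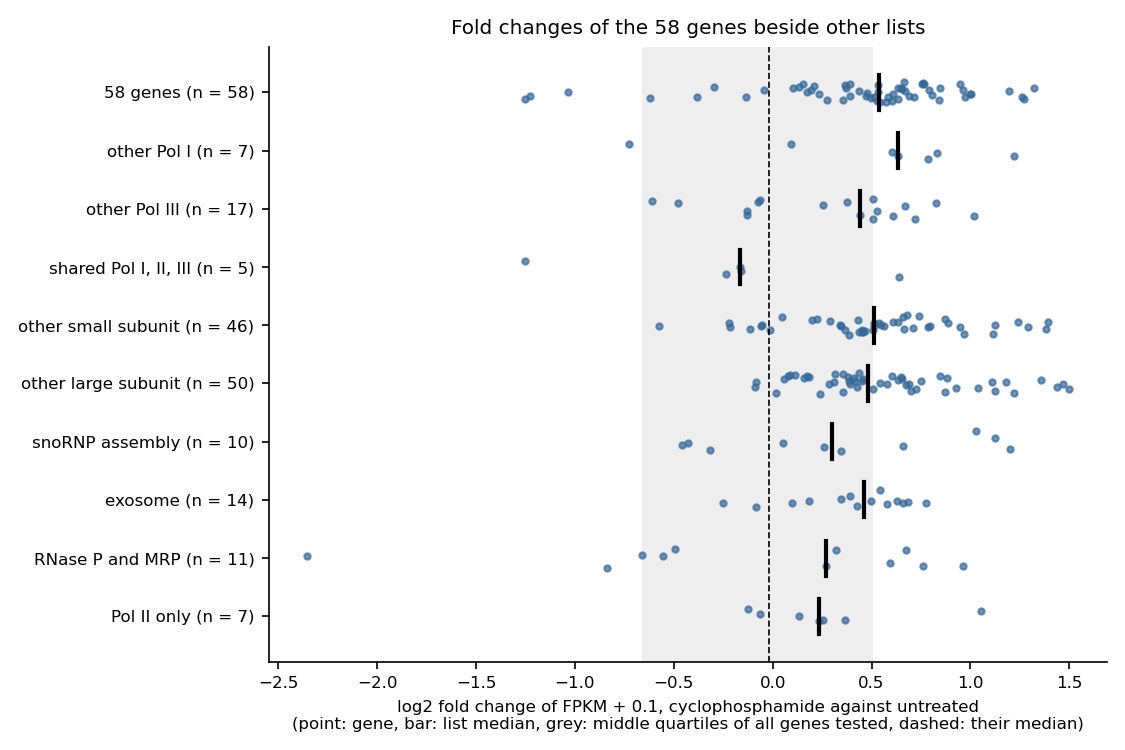
Log2 fold change of FPKM + 0.1 of each gene (points) and the median of each list (black bars) for the 58 genes and the other lists, with the middle quartiles of all tested genes in grey and their median as a dashed line. The small- and large-subunit lists have medians of 0.51 and 0.48, close to the 0.54 of the 58 genes, and the point at -2.35 in the RNase list is Pop1.

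Growth and cell type markers were read beside the members. All 5 proliferation markers fell, from a summed 93.0 to 97.2 FPKM in the untreated libraries to 28.4 to 34.5 FPKM with the drug, and Mki67 had a log2 fold change of -2.64 ± 0.10. Most ribosome biogenesis genes thus had higher levels in the libraries where these cell cycle genes had lower ones. Granulosa markers, mostly Inha, summed to 2083 to 2270.0 FPKM untreated and 888.5 to 1171 FPKM treated. Theca and stroma markers summed to 25 to 30.9 FPKM untreated and 7.87 to 9.33 FPKM treated, with Cyp17a1 and Insl3, which define theca cells, at 1 read each in the untreated group and at 8 and 0 reads in the treated group. In that list 2 of 4 tested markers fell. Surface epithelium markers, mostly the keratins Krt8 and Krt18, summed to 106 to 119.5 FPKM untreated and 49.9 to 73.1 FPKM treated, and 4 of 5 tested fell. Macrophage markers summed to 5.57 to 6.36 FPKM untreated and 8.86 to 10.95 FPKM treated, with Csf1r and Cd68 higher, Lyz2 lower and 4 of 7 under the filter. Ptprc, the general leukocyte marker, was at 9 reads untreated and 7 reads treated. Endothelial markers summed to 0.510 to 0.752 FPKM untreated and 0.388 to 0.680 FPKM treated, and neither of the 2 tested passed. Oocyte markers summed to 0.676 to 0.848 FPKM untreated and 2.33 to 3.78 FPKM treated. Of the 2 tested, Gdf9 rose (2.32 ± 0.15, limma adjusted p = 6.99e-06, from 41 to 253 reads) and Ddx4 did not pass, while Zp3 was at 0 reads untreated and 7 reads treated. The part of cell type, cell number or cell cycle in the rise of the members was not tested.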

How the data were processed

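Polyadenylated RNA of 6 libraries was sequenced. The submitters' processing notes list HISAT2 (2.0.5) and CASAVA, and the build GRCm39. For the counter, strand setting and annotation, nothing is given in the sources used. The deposited values are FPKM made by the authors, although the table is named as raw counts, as their fractional values show. Multiplied by gene length they gave whole reads for 100% of values (tolerance 0.01 of a read). Because FPKM implied library sizes from 0.975 to 1.04 times these sums, the authors had scaled the libraries in a way that is not stated. Coordinates are the table's, read as GRCm38, because 98.3% of 54495 gene IDs shared with GENCODE M21 had an equal start and end.

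Genes with at least 10 reads in 3 libraries and 15 in all (14885 of 54532, with 99.9% of reads) were tested with limma 3.58.1 in R 4.3.3 on log2(FPKM + 0.1), with a variance trend, two-sided, with Benjamini-Hochberg adjustment and a threshold of 0.05. This scale understates changes of low genes. The fit was tested on simulated data. Near-identical copies were sought with blastn 2.17.0 (at least 95% identity over 200 bases). Promoters came from RefSeq (GRCm38.p6). Members and lists were chosen with earlier results of these data known. Values per library are given for a panel of 17 members, the 5 largest rises and falls among called members with a mean of at least 1 FPKM (only 4 fell), and the smallest p-value of each role, and for a few others chosen after their values were seen. The labels do not say what the replicate number marks, so the main fit did not use it and a block went to the alternatives. Same-numbered replicates did not deviate together (correlations -0.08, 0.005 and -0.033). The planned comparison of paralogue proteins was not made. A member enters the counts and medians, but its own values are not reported here. Alternatives were other scalings, pseudocounts and filters, a replicate block, limma-voom on the recovered reads (43 higher and 5 lower), protein-coding genes only, a narrower name rule and leaving out each library.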

Additional observations from a re-analysis of the deposited data

How the results depend on the processing

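Across all alternatives 40 to 46 members were higher and 4 to 6 lower, beside 43 and 5. With the replicate block they were 42 and 5. Leaving out each library gave 40 to 45 higher and 5 to 6 lower, and the narrower name rule 42 and 4 of 55 members. Of the 48 called members, all kept their direction and 45 also their call in each of the 16 other fits. Utp3 lost its call with the replicate block (limma adjusted p = 0.0638), with upper-quartile scaling (0.0689) and with no filter (0.0838), and Rrp1b with upper-quartile scaling (0.0994), beside the losses without a library given above. Utp23, Nop56 and Utp6 passed when libraries were scaled to total reads (limma adjusted p = 0.0298, 0.0329 and 0.0354). The members' median was 0.46 with upper-quartile scaling, 0.59 when scaled to total reads and 0.51 with a pseudocount of 1. These scalings moved the median of all genes to -0.098 and 0.023, and the members' median stayed 0.52 to 0.61 above that of all genes in every fit. Brf1 changed sign when scaled to total reads (0.0030), and without a library it ranged from -0.11 to 0.026, and Taf1a from -0.0040 to 0.27. None of these Brf1 values passed. The group size of 3 limits the exact tests to p = 0.1. Utp14b has the fewest reads and the largest standard error of the members.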

Other observations

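RNA polymerase II, which makes messenger RNA, was read as the counterpart of polymerases I and III. Of its 7 own subunits 4 rose and none fell, with a median log2 fold change of 0.24. Polr2a, its largest subunit, measured 49.7, 49.8 and 48.6 FPKM untreated and 105, 94.2 and 109 FPKM with cyclophosphamide, a rise of 1.05 ± 0.071 without overlap (limma adjusted p = 7.98e-06). Polr2b, its partner in the catalytic core, measured 27.4, 24.5 and 27.2 FPKM untreated and 27.9, 22.8 and 25.3 FPKM treated and did not pass (-0.063 ± 0.087, limma adjusted p = 0.54). The largest subunits of polymerases II and III rose while that of polymerase I, Polr1a, fell, and no test of that difference was made.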
